A study of Mus musculus with 6 samples.

Results

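The lysosomal cathepsins were followed in macrophages taken from tumours with and without the scramblase Xkr8. The members were the rows of the count table with the symbols Ctsa, Ctsb, Ctsc, Ctsd, Ctse, Ctsh, Ctsk, Ctsl, Ctss and Ctsz, which are 10 of the 21760 gene symbols listed. All 10 had counts in every library and passed the filter on low counts. Tumours of MC38, a mouse colon carcinoma line, were left 16 days in C57BL6 mice after subcutaneous implantation, and their macrophages were purified by FACS (flow cytometric cell sorting) for RNA sequencing. There were 2 libraries from Xkr8 KO clone 1 tumours, 2 from Xkr8 KO clone 2 tumours and 2 from wild-type (WT) tumours, each from a separate mouse, with no further treatment. The genotype is that of the tumour cells. The macrophages came from the host, for which the labels give no altered allele, so Xkr8 counts in these libraries do not check the labels. Each KO group stands for 1 clone of tumour cells, so the missing Xkr8 and any other trait of that clone cannot be told apart. Age and sex of the mice are not stated.

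Xkr8 is activated by caspases in dying cells and moves phosphatidylserine to the outer leaflet, where phagocytes recognise it. Macrophages deliver engulfed material to lysosomes, in which cathepsins cleave the proteins. Ctsb, Ctsc, Ctsh, Ctsk, Ctsl, Ctss and Ctsz encode cysteine proteases of the papain family, Ctsd and Ctse encode aspartic proteases, and Ctsa encodes a serine carboxypeptidase. Most are made as inactive precursors, sorted to lysosomes through mannose 6-phosphate receptors or sortilin, activated at acid pH and held in check by cystatins outside the lysosome.

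Library totals were 37090034 to 40022755 estimated counts in 5 libraries and 20038047 in WT mouse 2. This library also had the largest share of the ribosomal precursor Rn45s, at 24.6% against 1.46% to 7.12% in the others, and the fewest symbols with counts, 16810 against 18193 to 19250. Its log2 CPM values correlated with those of the other libraries across genes with r of 0.931 to 0.944, against 0.980 to 0.995 among the other 5, as a description over genes that share a library. Levels are given as CPM (a gene's counts relative to a fixed library total) on library sizes scaled by the TMM method. The labelled cell type was checked on 12 macrophage markers, all of which had counts in every library. Their summed level was 9630 to 11042 CPM in KO libraries and 9464 and 12998 CPM in WT libraries, and the receptor Csf1r had 1059 to 1302 CPM in KO libraries and 1114 and 1633 CPM in WT libraries. For 2 of the 12, Adgre1 and Fcgr1, every KO library was above both WT libraries, against 12.9% of all genes tested. None was below, against 10.7% of all genes.

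None of the 10 cathepsins passed the test between macrophages of KO and WT tumours (edgeR quasi-likelihood F test, Benjamini-Hochberg adjusted p under 0.05 over 15560 genes), where 0.135% of all genes tested did. Their log2 fold changes ran from -0.88 for Ctsk to 1.13 for Ctse, with a median of 0.16 against 0.00 over all genes tested, and 5 of 10 were positive against 50.2% of all genes. Ctss, Ctsh, Ctsc and Ctse had every KO library above both WT libraries, which is 4 of 10 members, against 12.9% of all genes tested. No member had every KO library below both WT libraries, against 10.7% of all genes. Without adjustment, Ctss, Ctsh and Ctse had a p under 0.05, all with higher KO means, against 6.25% of all genes tested in that direction. In these bulk libraries, fewer cells of a type and less RNA per cell cannot be told apart.

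**Figure D1:**
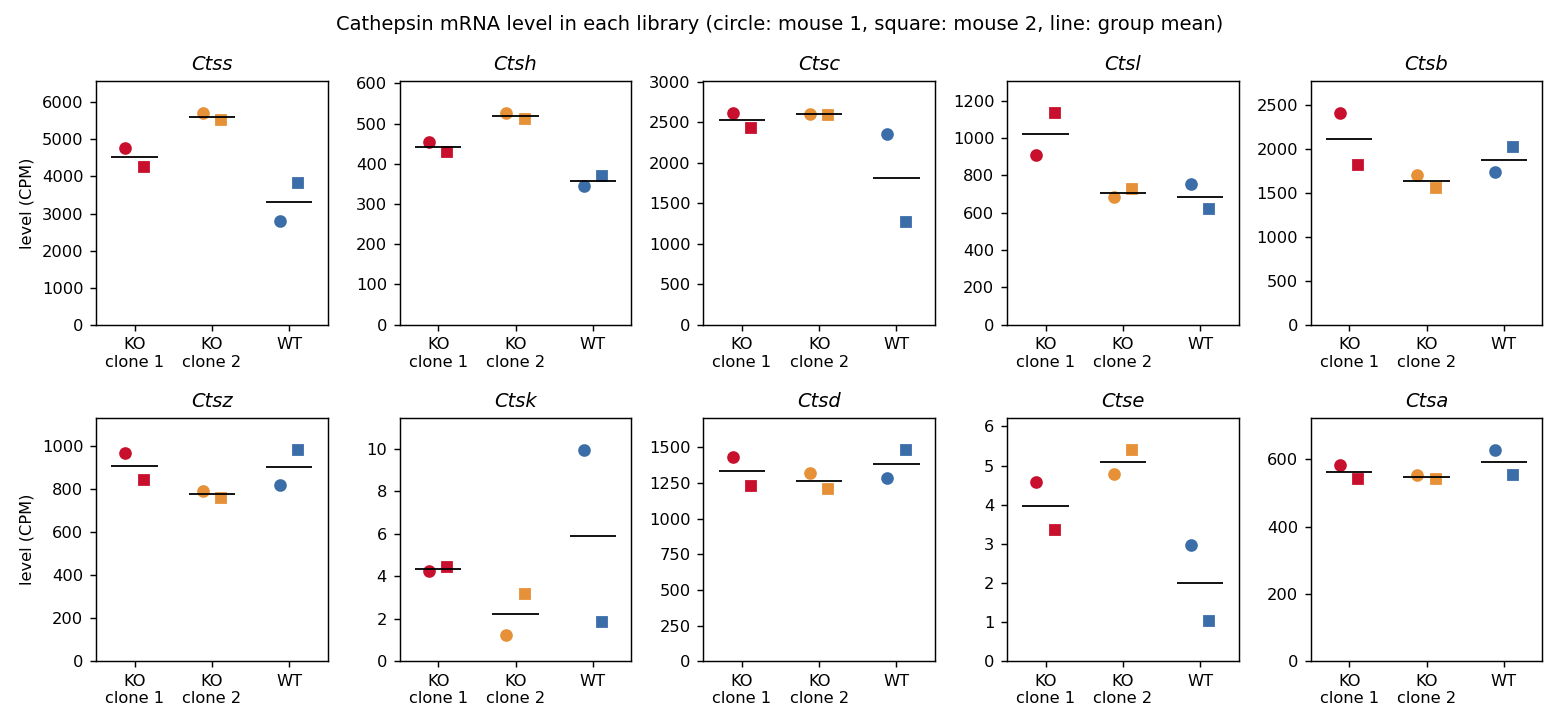
The level of each of the 10 cathepsins in CPM (vertical axes, from 0) in the 2 libraries of KO clone 1, KO clone 2 and WT (horizontal axes), with circles for mouse 1, squares for mouse 2 and a line for the group mean. Ctss, Ctsh, Ctsc and Ctse have all KO points above both WT points, and the WT points of Ctsc, Ctsk and Ctse lie far apart.

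Per length of transcript, Ctss was the most abundant cathepsin in all 6 libraries. Here the level is CPM per kilobase of the longest principal coding transcript with a RefSeq link in GENCODE M21. The mean over the 6 libraries was 3308 CPM per kb for Ctss, 927 for Ctsc, 624 for Ctsd, 598 for Ctsz, 408 for Ctsl, 394 for Ctsb, 272 for Ctsh, 156 for Ctsa, 2.75 for Ctsk and 1.73 for Ctse. In each library Ctss exceeded the next member by 2.19-fold to 4.04-fold per kb. The order of the other abundant members is less certain. Ctsc lay above Ctsd in 5 of 6 libraries, Ctsd above Ctsz in 5 of 6, and Ctsl above Ctsb in only 3 of 6, so these neighbours did not separate. Ctsh ranked 7 and Ctsa ranked 8 in every library on this length. With all annotated exons as the length in place of 1 transcript, Ctss stayed first, Ctsz moved to rank 2 and Ctsc to rank 4, and the order turned within the pairs Ctsb and Ctsl and Ctsa and Ctsh. Ctsk and Ctse were far below the rest, at 27 to 454 and 15 to 225 counts per library.

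**Figure D2:**
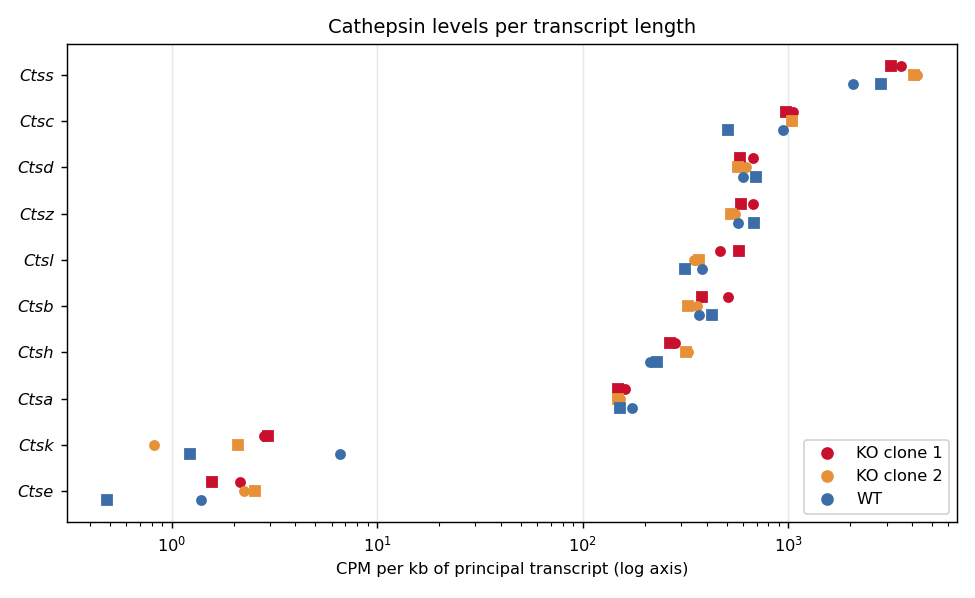
Levels of the 10 cathepsins in CPM per kb of principal transcript (horizontal log axis), 1 row per gene in the order of the mean over the 6 libraries, 1 point per library coloured by group (circle for mouse 1, square for mouse 2). Ctss leads with a mean of 3308 CPM per kb, 7 members have means between 156 and 927, and Ctsk and Ctse have means of 2.75 and 1.73.

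Among the cysteine cathepsins, Ctss (chr3:95526786-95556403 on GRCm38, plus strand) encodes cathepsin S, which stays active at neutral pH and trims the invariant chain of MHC class II in professional antigen-presenting cells. Ctsk (chr3:95499256-95509362, plus strand), the collagen-degrading cathepsin of osteoclasts, is its neighbour, with 17423 bases between them and no other coding gene. Their levels lay far apart in the same libraries, so the 250 bases before the RefSeq start site of each are shown (GRCm38.p6, plus strand, read 5′ to 3′). Capitals mark the one ISRE-type motif found (interferon-stimulated response element: GAAA, any 2 bases, GAAA again), which starts 21 bases before the start of Ctss.
Ctss, chr3:95526536-95526785: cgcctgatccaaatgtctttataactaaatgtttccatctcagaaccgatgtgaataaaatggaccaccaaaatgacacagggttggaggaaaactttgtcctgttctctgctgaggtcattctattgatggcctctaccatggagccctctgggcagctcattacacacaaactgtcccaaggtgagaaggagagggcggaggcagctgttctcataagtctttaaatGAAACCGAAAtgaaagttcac
Ctsk, chr3:95498960-95499209: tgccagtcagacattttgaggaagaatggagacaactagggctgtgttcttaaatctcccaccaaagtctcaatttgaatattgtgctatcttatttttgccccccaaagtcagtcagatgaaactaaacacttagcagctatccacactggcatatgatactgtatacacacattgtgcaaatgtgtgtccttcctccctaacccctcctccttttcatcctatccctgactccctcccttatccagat
The search covered both strands and, besides this motif, GAS (the interferon-gamma-activated site: TTC, any 3 bases, GAA), the E-box CACGTG and the longer CLEAR-type motif, an E-box with GT before and AC after it, so that each CLEAR-type match is also an E-box match. The ISRE-type motif was present in 2.98% of 32851 promoter windows of the same length. None of the 4 motifs was found in the Ctsk window.

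Ctss had 4778 and 4261 CPM in KO clone 1 mice and 5716 and 5515 CPM in KO clone 2 mice, against 2800 and 3824 CPM in WT mice. Every KO library was above both WT libraries, and both clone 2 libraries were above both clone 1 libraries. The means were 5067 ± 672 CPM in KO (SD, n = 4) and 3312 ± 724 CPM in WT (SD, n = 2). The log2 fold change was 0.61 ± 0.24 (SE) with a 95% interval of 0.046 to 1.18, an unadjusted p of 0.0375 and an adjusted p of 0.347 by edgeR. Against WT mouse 1 alone the log2 fold change was 0.83 (edgeR adjusted p = 0.329) and against WT mouse 2 alone 0.42 (edgeR adjusted p = 0.21).

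Ctsh (chr9:90054152-90076089, plus strand) encodes cathepsin H, an aminopeptidase. Its level was 455 and 430 CPM in KO clone 1 mice and 527 and 512 CPM in KO clone 2 mice, against 345 and 370 CPM in WT mice. The 3 groups did not overlap, with clone 2 highest and WT lowest, and replicates lay closer together than for Ctss. Means were 481 ± 46.0 CPM in KO and 357 ± 17.9 CPM in WT, and the log2 fold change was 0.43 ± 0.18 (95% interval 0.017 to 0.84, edgeR adjusted p = 0.359). It was 0.46 against WT mouse 1 alone and 0.39 against WT mouse 2 alone. Ctsh tracked Ctss over the 6 libraries, with a Pearson r of 0.968 between their log2 levels, given as a description of libraries that both genes share. Ctsh also varied least with the choice of method, at 0.37 to 0.48 over all alternatives for KO against WT.

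Ctsc (chr7:88278085-88310888, plus strand) encodes dipeptidyl peptidase 1, which activates the granule serine proteases of cytotoxic and myeloid cells. It had 2616 and 2432 CPM in KO clone 1 mice and 2602 and 2594 CPM in KO clone 2 mice, against 2349 and 1266 CPM in WT mice. The 4 KO libraries were close to each other and to WT mouse 1, and WT mouse 2 was far below. The log2 fold change was 0.50 ± 0.27 (95% interval -0.13 to 1.13, edgeR adjusted p = 0.413). It was 0.10 against WT mouse 1 alone, and 1.03 against WT mouse 2 alone with an edgeR adjusted p of 0.00581. Against WT mouse 2 alone, 37.5% of the 16033 genes tested were called, so the call of Ctsc is to be read against that share.

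Ctsl (chr13:64359337-64370890, minus strand) encodes cathepsin L, an endopeptidase of broad specificity. Its level was 911 and 1135 CPM in KO clone 1 mice and 686 and 728 CPM in KO clone 2 mice, against 752 and 618 CPM in WT mice. The clone 1 libraries were above all others, and the clone 2 libraries lay within the WT range. For KO against WT the log2 fold change was 0.34 ± 0.26 with an edgeR adjusted p of 0.503.

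Ctsb (chr14:63122462-63145923, plus strand) encodes cathepsin B, which acts as an endopeptidase and as a carboxydipeptidase. It was at 2406 and 1809 CPM in KO clone 1 mice and at 1705 and 1548 CPM in KO clone 2 mice, against 1733 and 2018 CPM in WT mice. KO and WT overlapped, with the highest library in clone 1 and the lowest in clone 2, and the log2 fold change was -0.0066 ± 0.24 (95% interval -0.55 to 0.54). Ctsz (chr2:174427493-174439039, minus strand), which encodes the carboxypeptidase cathepsin Z, had 967 and 845 CPM in clone 1 mice and 793 and 760 CPM in clone 2 mice, against 818 and 985 CPM in WT mice. KO and WT overlapped here too, with WT mouse 2 highest and clone 2 mouse 2 lowest. Its log2 fold change was -0.10 ± 0.19 (95% interval -0.55 to 0.35), and its levels followed those of Ctsb with an r of 0.909 over the 6 libraries, as a description.

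Ctsk was scarce and the least even member. It had 4.24 and 4.45 CPM in KO clone 1 mice and 1.25 and 3.17 CPM in KO clone 2 mice, against 9.97 and 1.86 CPM in WT mice. WT mouse 1 was the highest library and WT mouse 2 was below all but 1 of the others. The log2 fold change of -0.88 ± 0.66 (95% interval -2.42 to 0.66, edgeR adjusted p = 0.499) became 0.83 against WT mouse 2 alone and -1.63 against WT mouse 1 alone. Ctsk is also made by osteoclasts and activated fibroblasts. The summed level of 10 fibroblast markers was 2476 to 3952 CPM in KO libraries and 4160 and 12015 CPM in WT libraries, but Col3a1 alone made up 11320 CPM of the WT mouse 2 sum. Without Col3a1 the sum was 639 to 773 CPM in KO libraries and 526 and 695 CPM in WT libraries, which overlapped. Of the 10 markers, 2 had every KO library above both WT libraries, against 12.9% of all genes tested (Dcn and Thy1, log2 fold changes 1.06 ± 0.34 and 2.02 ± 0.44, edgeR adjusted p = 0.291 and 0.15). Which cells the counts of Dcn and Thy1 came from was not tested. Another 2 of the 10 markers had every KO library below, against 10.7% of all genes (Col3a1 and Fap). For 7 osteoclast markers the sum was 199 to 386 CPM in KO libraries and 154 and 221 CPM in WT libraries, with Calcr at 0 in some, and without Mmp9, its most abundant gene, it was 99.98 to 147 CPM in KO libraries and 95.2 and 150 CPM in WT libraries. Of the 6 osteoclast markers tested, 1 had every KO library above both WT libraries and 1 had every KO library below. The latter was Atp6v0d2 (log2 fold change -1.39 ± 0.32, edgeR adjusted p = 0.18). The part of either cell type in Ctsk was not tested.

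Of the aspartic cathepsins, Ctsd (chr7:142375911-142388038, minus strand) encodes cathepsin D, the main aspartic protease of lysosomes. It had 1436 and 1233 CPM in KO clone 1 mice and 1323 and 1207 CPM in KO clone 2 mice, against 1283 and 1485 CPM in WT mice. All 3 groups overlapped, and the log2 fold change was -0.09 ± 0.19 (95% interval -0.52 to 0.34). The 250 bases before its RefSeq start site are shown because Ctsd was the only member with an E-box, the core of the site bound by TFEB and its relatives, found more than once (GRCm38.p6, minus strand, read 5′ to 3′ on that strand, E-boxes in capitals).
Ctsd, chr7:142387828-142388077: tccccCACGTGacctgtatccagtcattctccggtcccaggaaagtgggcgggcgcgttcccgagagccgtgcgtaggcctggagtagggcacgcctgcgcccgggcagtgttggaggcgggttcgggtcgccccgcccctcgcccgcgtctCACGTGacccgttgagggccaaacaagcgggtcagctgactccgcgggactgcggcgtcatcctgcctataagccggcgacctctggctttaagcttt
The E-boxes start 245 and 98 bases before the start. In all, 7 of the 10 members had a window in the RefSeq table, with 2 windows for Ctsa, and Ctsb, Ctse and Ctsh were not in it. An E-box was in 3 of these 8 windows, those of Ctsd and Ctsl and 1 of Ctsa, against 6.02% of the 32851 windows. By the GENCODE positions, the Ctsl window and this Ctsa window lie inside their genes, and the Ctsd window lies partly inside its gene. The Ctsa window just before the annotated gene held no E-box. GAS was in the Ctsc window only, against 7.02% of windows, and no member window held the CLEAR-type motif, which 0.24% of windows did. These matches describe letters and not binding.

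Ctse (chr1:131638306-131675505, plus strand) encodes cathepsin E, an endosomal aspartic protease of immune cells and gastric epithelium. It was at 4.58 and 3.36 CPM in KO clone 1 mice and at 4.78 and 5.41 CPM in KO clone 2 mice, against 2.96 and 1.03 CPM in WT mice. The groups did not overlap, and the WT mouse 2 value rests on 15 counts. Ctse had the largest log2 fold change and the smallest p of the members, 1.13 ± 0.43 (95% interval 0.12 to 2.14, unadjusted p = 0.0332, edgeR adjusted p = 0.343). Against WT mouse 1 alone it was 0.59, and against WT mouse 2 alone it was 2.14 with an edgeR adjusted p of 0.00738, again where 37.5% of genes were called.

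Ctsa (chr2:164832873-164841032, plus strand) encodes cathepsin A, or protective protein, which stabilises neuraminidase and beta-galactosidase in the lysosome. Its level was the most even of all, at 584 and 541 CPM in KO clone 1 mice and 553 and 543 CPM in KO clone 2 mice, against 629 and 555 CPM in WT mice. Clone 1 overlapped WT, and both clone 2 libraries were below both WT libraries. For KO against WT the log2 fold change was -0.09 ± 0.16 (95% interval -0.48 to 0.29). Ctsa overlaps Pltp and Neurl2 on the opposite strand, Ctsb overlaps Fdft1 and Ctsz overlaps Nelfcd, and whether strand was used in counting is not stated. Pltp had 88.7 to 155 CPM in KO libraries and 49.97 and 84.6 CPM in WT libraries, so shared reads cannot be told apart there. The other 3 neighbours did not exceed 53.1 CPM in any library. Ctsd overlaps Gm49369, a coding gene on the same strand, which is not among the symbols listed.

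**Figure D3:**
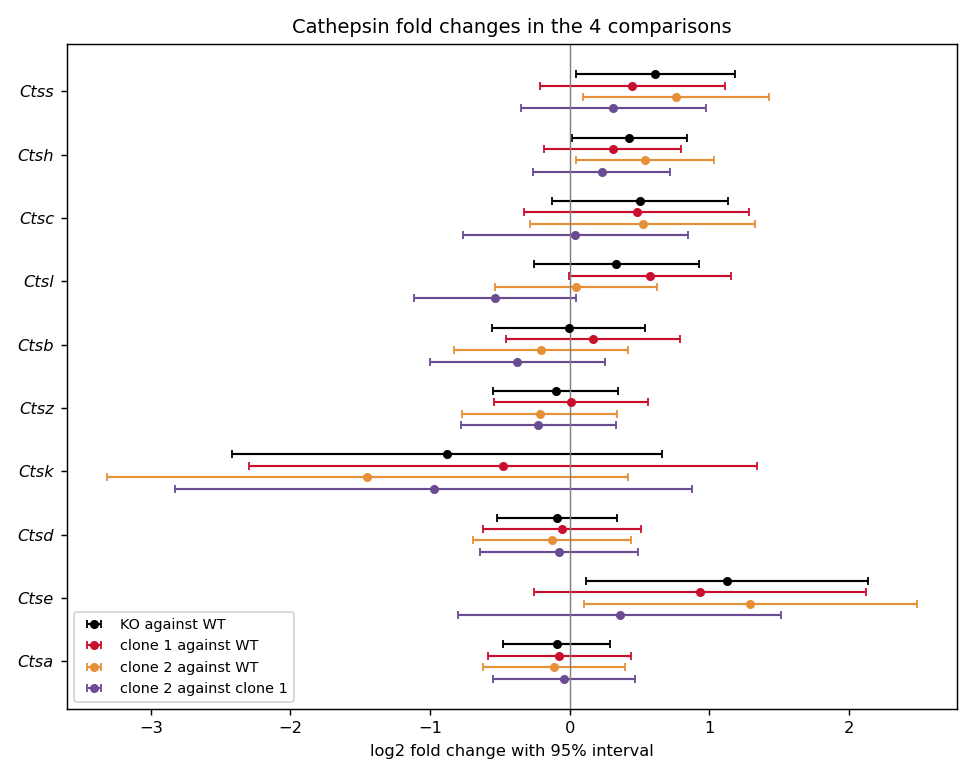
Log2 fold change (horizontal axis) of each cathepsin in KO against WT, clone 1 against WT, clone 2 against WT and clone 2 against clone 1, with 95% intervals from the edgeR fits as bars. In KO against WT the intervals of Ctss, Ctsh and Ctse exclude 0, and all adjusted p-values there are at least 0.343.

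The clones were then set against WT and against each other in a fit with 3 groups, in which both clones share the same WT libraries. No cathepsin passed in clone 1 against WT, where 0.00643% of genes did (1 of 15560), with edgeR adjusted p-values of 0.706 to 0.991 and 7 of 10 log2 fold changes positive, against 51.2% over all genes. None had an unadjusted p under 0.05, against 7.1% of all genes. Clone 1 was above both WT libraries for Ctsc, Ctse, Ctsh, Ctsl and Ctss, 5 of 10 members against 17.4% of all genes, and below for none, against 15.1%. The smallest unadjusted p there was that of Ctsl, with a log2 fold change of 0.58 ± 0.24 (unadjusted p = 0.0508). In clone 2 against WT, where 0.00643% of genes passed, no cathepsin did, and 5 of 10 log2 fold changes were positive against 48.3% over all genes. The log2 fold change there was 0.76 ± 0.28 for Ctss (edgeR adjusted p = 0.421), 0.54 ± 0.21 for Ctsh (0.428) and 1.29 ± 0.50 for Ctse (0.431), and these 3 members had an unadjusted p under 0.05, against 5.12% of all genes in that direction. Clone 2 was above both WT libraries for Ctsc, Ctse, Ctsh and Ctss, against 26.5% of all genes, and below both for Ctsa, Ctsb and Ctsz, against 25.3%. Leaving out WT mouse 1 brought Ctsc, Ctse and Ctsl past the threshold for clone 1, with log2 fold changes of 1.01, 1.95 and 0.74, and Ctsc, Ctse and Ctsh for clone 2, with 1.05, 2.31 and 0.50, where 34.5% and 40.2% of all genes were called.

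The difference between the clones was tested directly. No gene of the table passed in clone 2 against clone 1 by edgeR (0% called, 502 genes or 3.23% with an unadjusted p under 0.05, 117 called by DESeq2), and no cathepsin had an unadjusted p under 0.05. Positive log2 fold changes numbered 4 of 10, against 47% over all genes. Ctsl had the smallest p of the members, with a log2 fold change of -0.53 ± 0.24 (95% interval -1.11 to 0.046, unadjusted p = 0.0658, edgeR adjusted p = 0.9999). Clone 2 lay below clone 1 without overlap for Ctsl, Ctsb, Ctsz and Ctsk, which is 4 of 10 members against 22.7% of all genes, and above it for Ctss, Ctsh and Ctse, 3 of 10 against 21.8%. For Ctsb the log2 fold change was -0.37 ± 0.26 and for Ctss 0.31 ± 0.28. Ctss, Ctsh and Ctse had their libraries in the order WT, clone 1, clone 2 with no overlap, 3 of 10 members against 4.39% of the 15560 genes tested.

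The mix of cathepsins was compared as the share of each in their summed level per kb. The sum of the 10 members was 14160 and 12694 CPM in clone 1 mice and 13910 and 13415 CPM in clone 2 mice, against 10722 and 11124 CPM in WT mice, so every KO library was above both WT libraries. Without Ctss, the most abundant member, the KO and WT sums overlapped. As a part of all counts the members took 1.31% to 1.52% in KO libraries and 1.25% and 0.807% in WT libraries. Ctss made up 48.1% and 47.2% of the per kb sum in clone 1 mice and 55.3% and 55.2% in clone 2 mice, against 38.8% and 48.4% in WT mice, so clone 1 overlapped WT and clone 2 did not. The share of Ctsd was 9.20% and 8.70% in clone 1 mice and 8.16% and 7.70% in clone 2 mice, against 11.3% and 11.97% in WT mice. Ctsz had 9.15% and 8.81% in clone 1 mice and 7.22% and 7.15% in clone 2 mice, against 10.7% and 11.7% in WT mice. Ctsd, Ctsz and Ctsa had lower shares in every KO library than in either WT library, although their CPM levels overlapped. A share falls when another member is higher, and these shares were not tested. Cysteine cathepsins together were 88.6% to 90.2% of the sum in KO libraries and 85.4% in both WT libraries.

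**Figure D4:**
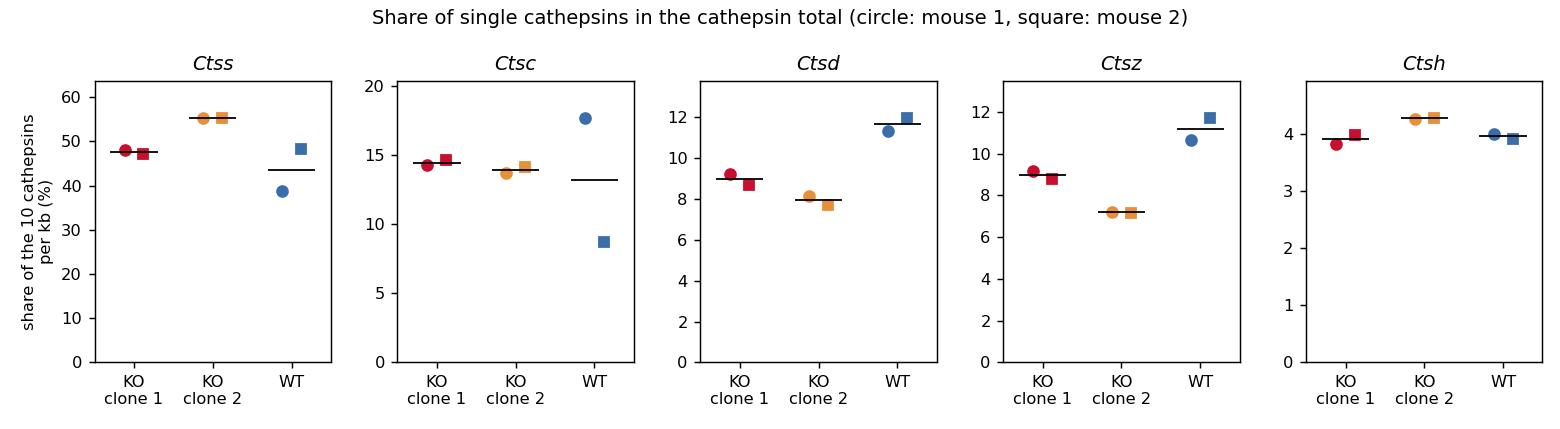
Share of Ctss, Ctsc, Ctsd, Ctsz and Ctsh in the summed level per kb of the 10 cathepsins, in percent (vertical axes, from 0), in the libraries of KO clone 1, KO clone 2 and WT, with circles for mouse 1 and squares for mouse 2. Ctss is at 55.3% and 55.2% in clone 2, and Ctsd and Ctsz are lower in each KO library than in both WT libraries.

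Cathepsins outside the set were few. Of 12 listed, 6 were in the table and 4 passed the filter, and none passed the test for KO against WT. Ctsw, a cathepsin of cytotoxic lymphocytes, had 3.39 and 2.32 CPM in clone 1 mice and 3.92 and 4.50 CPM in clone 2 mice, against 0.769 and 1.86 CPM in WT mice (log2 fold change 1.49 ± 0.47, edgeR adjusted p = 0.291). Ctso was at 38.8 to 62.0 CPM in KO libraries and 45.0 and 34.5 CPM in WT libraries, and Ctsf was under 2 CPM in all. Cts8, a cathepsin known from the rodent placenta, had 0.625 to 1.19 CPM in KO libraries and 2.13 and 1.93 CPM in WT libraries, so every KO library was below both WT libraries (log2 fold change -1.04 ± 0.36, unadjusted p = 0.0219, edgeR adjusted p = 0.322).

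Of the cathepsin inhibitors, 8 passed the filter and none passed the test, with 7 positive log2 fold changes and a median of 0.97, against 0.00 over all genes tested. Cst7, which encodes cystatin F, an inhibitor that enters lysosomes of immune cells and acts on cathepsin C, had 10.4 and 4.84 CPM in clone 1 mice and 8.14 and 6.97 CPM in clone 2 mice, against 2.24 and 0.619 CPM in WT mice. All KO libraries were above both WT libraries, and the log2 fold change was 2.31 ± 0.53 (edgeR adjusted p = 0.178). Serpina3g, an intracellular serpin that inhibits cysteine cathepsins, had 44.6 to 80.7 CPM in KO libraries and 16.3 and 40.6 CPM in WT libraries (1.22 ± 0.40, edgeR adjusted p = 0.307). Cst3, the secreted cystatin C, had 414 to 560 CPM in KO libraries and 389 and 280 CPM in WT libraries (0.54 ± 0.22, edgeR adjusted p = 0.354). Cstb, the cytosolic cystatin B, was at 95.3 to 116 CPM in KO libraries and at 101 and 26.1 CPM in WT libraries, so it was apart in WT mouse 2 only. The negative log2 fold change was that of Cst6 (-0.49 ± 0.42, edgeR adjusted p = 0.541). It had 10.9 and 13.9 CPM in clone 1 mice and 7.07 and 6.25 CPM in clone 2 mice, against 18.4 and 8.12 CPM in WT mice. Both clone 2 libraries were below both WT libraries. In a list of granule proteins 8 genes passed the filter and none the test. They were serine proteases, which cathepsin C activates, and the pore-forming protein Prf1, which is not a protease. Log2 fold changes were positive for 5, Prf1 among them (2.45 ± 0.71), and negative for 3. The negative ones were Prtn3 (-0.72 ± 0.88), Cma1 (-0.27 ± 0.87) and Mcpt4 (-0.12 ± 0.76), all under 1 CPM in every library. Gzmb, granzyme B, was at 59.4 and 19.5 CPM in clone 1 mice and 21.4 and 20.3 CPM in clone 2 mice, against 2.33 and 4.47 CPM in WT mice (log2 fold change 3.18 ± 0.63, edgeR adjusted p = 0.119), and Gzma had 2.42 ± 0.37 (edgeR adjusted p = 0.0637).

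Genes that make, sort and switch on cathepsins gave no call either. Of 14 genes for activation and sorting, 5 had positive log2 fold changes and the median was -0.32. Lgmn, the legumain protease that processes several cathepsin precursors, had 1700 to 1883 CPM in KO libraries and 1723 and 2529 CPM in WT libraries (-0.27 ± 0.21, edgeR adjusted p = 0.509). Sort1, the receptor sortilin, had 5.09 to 7.73 CPM in KO libraries and 4.77 and 2.61 CPM in WT libraries (0.74 ± 0.32, edgeR adjusted p = 0.366). Among 13 regulators of lysosomal genes 4 were positive, with a median of -0.18. Mitf, a relative of Tfeb that binds the same E-box, had 36.5 to 49.3 CPM in KO libraries and 31.4 and 20.98 CPM in WT libraries (0.69 ± 0.23, edgeR adjusted p = 0.307). Tfeb had a log2 fold change of -0.32 ± 0.21 and Tfe3 of -0.27 ± 0.28, with overlapping libraries.

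The rest of the lysosome was measured beside the cathepsins, and none of its genes passed for KO against WT. Of 35 genes listed as other lysosomal hydrolases, 20 were positive with a median log2 fold change of 0.05. The positive ones include Tpp2 (0.49 ± 0.31), which encodes a cytosolic peptidase and is not part of the lysosome. Every KO library was above both WT libraries for 7 of the 35, against 12.9% of all genes tested, and below for 2, against 10.7%. Their sum was also above, at 4587 to 5303 CPM in KO libraries and 4534 and 4163 CPM in WT libraries. Acp2, lysosomal acid phosphatase, had 153 to 185 CPM in KO libraries and 119 and 104 CPM in WT libraries (0.65 ± 0.17, edgeR adjusted p = 0.242), and Gaa, acid alpha-glucosidase, had 83.4 to 89.2 CPM in KO libraries and 103 and 167 CPM in WT libraries (-0.64 ± 0.21, edgeR adjusted p = 0.298). Of 18 lysosomal membrane genes 13 were positive with a median of 0.32, among them Scarb2, the receptor that carries glucocerebrosidase to lysosomes, at 0.67 ± 0.23. In this list 7 genes had every KO library above both WT libraries and 1 had every KO library below. The sum was above too, at 3949 to 4414 CPM in KO libraries and 3568 and 3690 CPM in WT libraries. Of 18 genes of the proton pump 12 were positive with a median of 0.15, 6 were above, 2 were below, and the sums overlapped. Its subunit Atp6v0d2 was at 1.81 to 3.47 CPM in KO libraries and at 5.86 and 6.33 CPM in WT libraries (-1.39 ± 0.32, edgeR adjusted p = 0.18).

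Cathepsin S acts on the invariant chain encoded by Cd74, so the MHC class II route was set beside it. Of 11 genes for antigen processing none passed for KO against WT, 5 were positive and the median log2 fold change was -0.10. Cd74 had 1912 and 2268 CPM in clone 1 mice and 4461 and 4353 CPM in clone 2 mice, against 1353 and 7721 CPM in WT mice, so the WT libraries enclosed all 4 KO libraries. In clone 2 against clone 1 all 11 were higher without overlap, against 21.8% of all genes tested, with a median log2 fold change of 0.87, and none passed the test. The unadjusted p by edgeR was under 0.05 for 4 of the 11, against 3.23% of all genes tested in either direction.

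Markers of other cells differed between the groups beside these results. Each list but that of B cells is given as its sum, as the sum without its most abundant gene and as a number of genes. That number counts the genes with every KO library above or below both WT libraries. For comparison with these numbers, 12.9% of all genes tested were above and 10.7% were below. The summed level of 11 T and NK cell markers was 106 to 198 CPM in KO libraries and 22.6 and 34.7 CPM in WT libraries, with Ncr1 at 0 in some. It was 69.2 to 153 CPM in KO libraries and 15.3 and 27.2 CPM in WT libraries without Klrk1, 10 of the 11 genes were above, and Cd3g, Cd2 and Klrk1 passed the test as higher in KO.

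Monocyte markers (8 genes) had overlapping sums, at 2817 to 3577 CPM in KO libraries and 2896 and 4219 CPM in WT libraries. Without Fn1 the sum was 719 to 1121 CPM in KO libraries and 581 and 224 CPM in WT libraries, and 6 of the 8 genes were above, of which Ly6c2, whose reads may be shared with the near-identical Ly6c1, passed the test. Dendritic cell markers (10 genes, with Cd209a at 0 in some) summed to 100 to 117 CPM in KO libraries and 70.4 and 129 CPM in WT libraries. Without Fscn1 the sum was 41.2 to 57.9 CPM in KO libraries and 24.3 and 33.5 CPM in WT libraries. Of these 10 genes 7 were above, and Dpp4 passed the test as higher in KO. By edgeR 5 had an unadjusted p under 0.05 (Flt3, Ccr7, Xcr1, Cd209a and Dpp4), all higher in KO, against 6.25% of all genes tested in that direction. Which cells the counts of these 5 genes came from was not tested.

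Neutrophil markers (8 genes, with S100a9, Ly6g, Retnlg and Camp at 0 in some) summed to 56.3 to 74.8 CPM in KO libraries and 40.1 and 38.9 CPM in WT libraries. Without Csf3r, which monocytes and macrophages also express, the sums overlapped, at 9.64 to 14.4 CPM in KO libraries and 13.8 and 13.1 CPM in WT libraries. Of the 7 tested genes 4 were above, and Cxcr2 was below (log2 fold change -0.71 ± 0.21, edgeR adjusted p = 0.286). Endothelial markers (7 genes, with Emcn and Cldn5 at 0 in some) summed to 48.0 to 61.7 CPM in KO libraries and 23.4 and 31.4 CPM in WT libraries. Without Pecam1, which leukocytes also express, they overlapped, at 11.3 to 18.7 CPM in KO libraries and 10.3 and 16.5 CPM in WT libraries. Of the 5 tested genes Pecam1 and Emcn were above, Cdh5, Kdr and Vwf overlapped, and Vwf had a log2 fold change of -0.92 ± 0.46.

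Among B cell markers 3 genes passed the filter. Cd79b had 7.76 to 12.3 CPM in KO libraries and 4.68 and 3.10 CPM in WT libraries (log2 fold change 1.37 ± 0.30, edgeR adjusted p = 0.158), and Cd22 had 7.37 to 9.69 CPM in KO libraries and 4.79 and 5.43 CPM in WT libraries (0.80 ± 0.22, edgeR adjusted p = 0.262). Ms4a1 overlapped, at 0.45 ± 0.67. Epithelial markers summed to 11.1 to 12.9 CPM in KO libraries and 15.7 and 44.1 CPM in WT libraries over 5 genes, with Krt8, Krt18 and Cldn7 at 0 in some, and without Cdh1 the sum was at most 1.03 CPM in any library. Of the 2 tested genes 1 was below and none was above. The part of these cells in the levels of Ctss, Ctsh, Ctsc, Ctse, Ctsw, Cst7 and the granzymes was not tested.

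**Figure D5:**
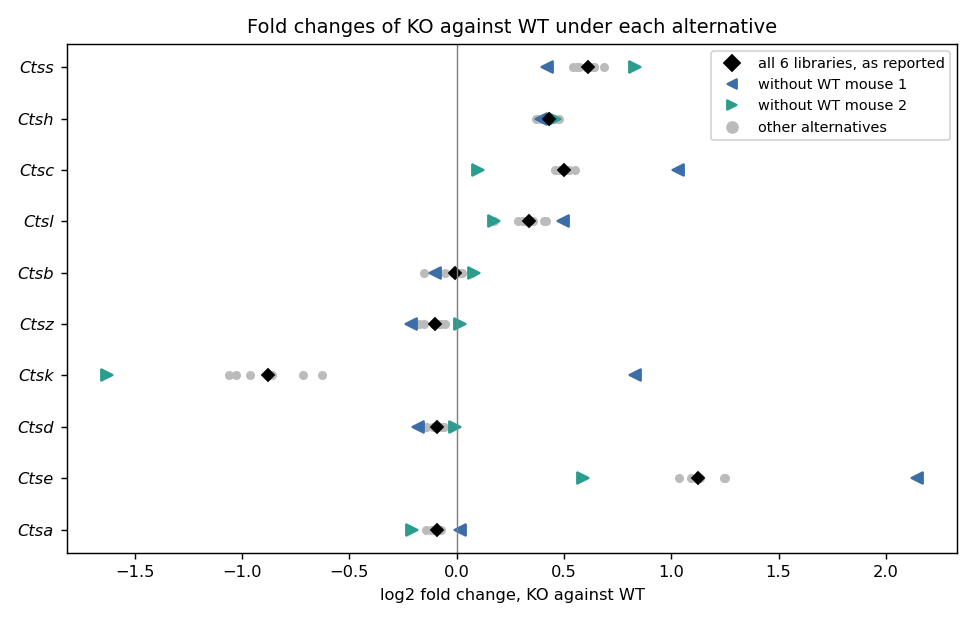
Log2 fold change of each cathepsin in KO against WT (horizontal axis) with all 6 libraries (black diamonds), without WT mouse 1, without WT mouse 2 and under the other alternatives. Ctsh stays between 0.37 and 0.48, Ctss between 0.42 and 0.83, and Ctsc, Ctse and Ctsk move most with the choice of WT mouse.

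Across the alternatives, the log2 fold change of KO against WT stayed positive for Ctss, Ctsh, Ctsc, Ctse and Ctsl, at 0.42 to 0.83, 0.37 to 0.48, 0.10 to 1.03, 0.59 to 2.14 and 0.18 to 0.50. It stayed negative for Ctsd, at -0.18 to -0.0055, and took both signs for Ctsa, Ctsb, Ctsk and Ctsz. DESeq2 called 498 genes of the table for KO against WT and none of the cathepsins.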

How the data were processed

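Per the labels' protocols, rRNA was depleted from total RNA of the sorted macrophages and TruSeq libraries were made. The authors deposited estimated counts per gene symbol, with no scaling for depth. The submitters' processing notes list Salmon 0.7.2 and mm10, with no role for either. The transcript set and the use of strand are not stated. Libraries were grouped as the labels give them. The 2 libraries of a group were not copies (chi-square per degree of freedom 80.5 to 860 against counting noise). The labels give separate mice, but the 2 mice of a KO group carried the same clone. In the fit with 3 groups, p-values therefore measure the spread between mice and not between independent knockouts. In KO against WT the difference between the clones also counts as spread. Mouse and clone differences are mixed in its p-values, which treat all KO libraries as independent.

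The deposited counts, which were whole numbers, entered the quasi-likelihood test of edgeR 4.0.16 (R 4.3.3) after filterByExpr (minimum count 10, minimum total 15) with TMM factors. KO against WT used 2 genotype levels, and clone contrasts a fit with 3 groups sharing 1 estimate of the spread. Adjustment was by Benjamini-Hochberg over 15560 genes. Intervals are 95%. CPM were computed from the deposited counts on TMM-scaled sizes. Positions are from GENCODE M21 on GRCm38, in which 20429 of the 21760 symbols were found (93.9%), and promoter windows are from RefSeq on GRCm38.p6. Alternatives were RLE size factors, DESeq2 1.42.0, other filters, Rn45s left out, the mean of the clones, the mouse number as a block and each library left out. The fits were tested on simulated counts. Of 50 genes changed there by a log2 fold change of 1, 4 were recovered for KO against WT. The number was 3 for clone 1 against WT, 2 for clone 2 against WT and 1 for clone 2 against clone 1. Changes of that size were therefore mostly missed. Some simulated calls fell on unchanged genes, 5 of 131 for KO against WT and 7 of 119 for clone 1 against WT. For clone 2 against WT it was 5 of 115, and for clone 2 against clone 1 it was 18 of 137.

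The members and gene lists were chosen with earlier results of these data known. All members are named, with examples from the 4 genes of smallest p per direction in each pathway list, a fixed set of related genes, the leading genes of a marker list, and the 3 genes most like Ctse and like Ctsl. Not every gene that this rule allows is named. Other marker genes were named, and the sums without the most abundant gene made, with their values in view. A marker gene is not reported here.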

Additional observations from a re-analysis of the deposited data

Results flagged for a closer look

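Ctsc in the 4 KO libraries held 1 value apart from the others. KO clone 1 mouse 2 had 2432 CPM, against 2594 to 2616 CPM in the other 3 KO libraries. Its gap was 0.884 of the whole range, above Dixon's critical value of 0.829 for 4 samples. The gap is small beside the level of the gene. Each of the 10 members was checked in this way, and chance gives a value apart in about 1 in 20 groups.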

How the results depend on the processing

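With all 6 libraries, no cathepsin passed the threshold under any alternative of normalization, filter or tool, including DESeq2. Only the omission of WT mouse 1 brought cathepsins past it, so that over the omitted libraries the number of members called ran from 0 to 2 for KO against WT, 0 to 3 for clone 1 against WT, 0 to 3 for clone 2 against WT and 0 to 0 for clone 2 against clone 1. Without the filter, Ctsb in KO against WT was 0.019. Ctsz in clone 1 against WT was -0.0089 with RLE size factors, -0.0088 with DESeq2 and -0.034 with the filter of 5 CPM, under which Ctsl in clone 2 against WT was -0.012 and Ctse and Ctsk gave no value. Over the omitted libraries, KO against WT ran from -0.21 to 0.014 for Ctsa, -0.15 to 0.082 for Ctsb, -1.63 to 0.83 for Ctsk and -0.21 to 0.016 for Ctsz. Clone 1 against WT ran from -0.19 to 0.033 for Ctsa, -0.044 to 0.36 for Ctsb, -0.16 to 0.058 for Ctsd, -1.22 to 1.24 for Ctsk and -0.11 to 0.12 for Ctsz. Clone 2 against WT ran from -2.26 to 0.27 for Ctsk and -0.11 to 0.21 for Ctsl. Clone 2 against clone 1 ran from -0.088 to 0.018 for Ctsa, -0.0054 to 0.096 for Ctsc and -0.18 to 0.038 for Ctsd. Where an omission left a group with 1 library, that library was assumed to vary like the other groups, and beyond that the cause of these turns was not tested. Calls over the whole table moved more: for KO against WT they numbered 21 by edgeR, 498 by DESeq2, 111 without the filter and 1 with the mean of the clones, and 1 to 6020 over the omitted libraries. For clone 1 against WT they numbered 1 by edgeR, 268 by DESeq2 and 123 without the filter, for clone 2 against WT 1, 462 and 229, and for clone 2 against clone 1 0, 117 and 53.

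The mouse numbers did not pair the libraries. The deviations of same-numbered mice correlated at -0.13 between clone 1 and WT, 0.05 between clone 2 and WT and 0.20 between clone 2 and clone 1. With the mouse number as a replicate block, 0 cathepsins passed in each of the 4 comparisons, and 1 rather than 3 had an unadjusted p under 0.05 for KO against WT, a count chosen after seeing the data. The whole table gave 15 calls for KO against WT with the block and 0 in the other comparisons. Ctse and Ctsk, at 15 to 225 and 27 to 454 counts per library, are the members whose precision depth limits most.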

Other observations

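The genes whose levels were most like those of 2 cathepsins over the 6 libraries are given as a description, chosen among 10257 genes for Ctse and 10256 for Ctsl whose mean level reached 5 CPM. For Ctse these were Acap2, Tusc2 and Ulk2, with a Pearson r of 0.999, 0.995 and 0.994 between log2 levels. For Ctsl they were Tspan4, Tle6 and Tnnt2, with 0.997, 0.992 and 0.988. Among the members themselves, Ctsc was most like Ctse (0.962) and Ctsd most like Ctsz (0.891), and Ctss and Ctsa were the least alike (-0.735).

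Cd63, a tetraspanin of the lysosomal membrane, had 64.7 to 73.2 CPM in KO libraries and 81.2 and 289 CPM in WT libraries. The log2 fold change was -1.42 ± 0.41 (edgeR adjusted p = 0.27), and WT mouse 2 was the library apart. Furin, a precursor convertase, had 132 to 318 CPM in KO libraries and 225 and 578 CPM in WT libraries (-0.96 ± 0.44, edgeR adjusted p = 0.38).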
